A study of Mus musculus with 12 samples.

Results

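Neuropeptides are cut from longer precursor proteins, packed into dense-core vesicles and released to act mainly on G protein-coupled receptors. Many are known for the hypothalamus, where they steer hormones and feeding. Most of the precursors described here are also made by neurons of cortex, striatum, amygdala or olfactory bulb, where their peptides act beside fast transmitters. The 8 genes are Adcyap1 (pituitary adenylate cyclase-activating polypeptide, PACAP), Nmb (neuromedin B) and Grp (gastrin-releasing peptide) of the bombesin-like family, the tachykinin precursors Tac1 (substance P and neurokinin A) and Tac2 (neurokinin B in mice), Cck (cholecystokinin), Nts (neurotensin) and Npff (neuropeptide FF). They were chosen by name, and their probes were found through the RefSeq accession that each array probe carries. Of the 8 genes each had 1 probe, out of 33390 genes and unnamed transcripts on the array, and all 8 were bright enough to enter the tests. Adcyap1, Nmb, Tac1, Tac2, Cck, Nts and Npff were well above background, by the flag of the scanner software, on 12 of 12 arrays, and Grp on 10.

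Mouse brain RNA was hybridised to 12 one-colour Agilent arrays, 1 for each of 6 regions in wild-type (WT) mice and in mice lacking the cytokine IL-18 (KO). All mice were males of 12 weeks with the strain label C57BL/6, bred as littermates in the F2 generation of a cross of IL-18-/- males with C57BL/6J females, and perfused with saline before dissection. Each array held equal amounts of RNA from 5 pooled mice, so no spread between mice can be read from it, and 400 ng of RNA was labelled with Cy3. Olfactory bulb was taken from a slice 3.5 to 4.5 mm anterior to bregma, prefrontal cortex from 2.5 to 3.5 mm, striatum from -0.5 to 0.5 mm, and amygdala, hippocampus and hypothalamus all from 1.5 to 2.5 mm posterior to bregma. For the prefrontal cortex the series text gives an anterior position and the sample labels a posterior one. Whether 1 set of mice gave all 6 regions is not stated in the labels.

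A level below is the log2 processed signal of a probe minus the 75th percentile of its array, so 0 is the signal below which 75% of the gene spots of that array lie. Levels of different genes were not set against each other, since probes differ in brightness. The 75th percentile ran from an intensity of 208 on the striatum WT array to 768 on the amygdala KO array, and 60.8% to 81.3% of spots were well above background. Il18, the targeted gene, had a KO minus WT difference of -4.36 across regions (SE 0.16), with adjusted p = 0.000615 by limma and the KO array lower in 6 of 6 regions. Each region lay on its own slide, so region and slide cannot be told apart, and on each slide WT sat at position 1 and KO at position 3, so these cannot be told apart either. Marker genes of olfactory bulb, prefrontal cortex, striatum and hippocampus were highest on the arrays labelled so. The summed linear level of 8 striatum markers was 134 to 147 on the striatum arrays and at most 9.98 elsewhere. The array labelled amygdala WT went against its label. Its summed level of 10 hypothalamus markers was 179, beside 154 and 184 on the hypothalamus arrays and 2.77 on the amygdala KO array, and its 5 amygdala markers summed to 25.9, beside 26.7 and 22.6 on the hypothalamus arrays and 36.4 on the amygdala KO array. Region calls of the 8 genes are therefore given with and without it. KO minus WT within amygdala needs this array and has no version without it. Other amygdala differences include it unless stated.

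Regulation of these genes by cyclic AMP, which acts through factors of the CREB family, is long established for several of them, so the stretch upstream of their start sites is shown for the 4 genes whose promoter window held the CREB-type core TGACG. The letters TGACG and their reverse complement CGTCA were searched on both strands in the 250 bases before each start site in the RefSeq promoter table of build GRCm38.p6. Of the 8 genes, 6 had a window there (Grp and Npff are named only). The core stood in Adcyap1, 91 bases before the start site on the gene's strand, in Tac1 197 and 43 bases before it, in Cck 47 bases before it and in Nts 166 bases before it, the last 3 genes on the opposite strand. It was not among the letters of the Nmb and Tac2 windows. Of all 32851 windows in the table, 17.8% held it, and matches did not overlap. A match describes the letters alone. The windows are chr17:93198767-93199016 on the plus strand for Adcyap1 (upstream of 1 of 2 listed starts), chr6:7554811-7555060 on the plus strand for Tac1, chr9:121495695-121495944 on the minus strand for Cck and chr10:102490419-102490668 on the minus strand for Nts. They are written 5′ to 3′ on the gene's strand, with the core in capitals.
Adcyap1: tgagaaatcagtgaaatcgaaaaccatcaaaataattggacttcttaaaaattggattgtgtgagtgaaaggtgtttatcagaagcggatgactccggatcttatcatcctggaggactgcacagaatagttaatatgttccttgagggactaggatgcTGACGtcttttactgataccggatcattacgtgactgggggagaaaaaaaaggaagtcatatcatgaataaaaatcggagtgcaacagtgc
Tac1: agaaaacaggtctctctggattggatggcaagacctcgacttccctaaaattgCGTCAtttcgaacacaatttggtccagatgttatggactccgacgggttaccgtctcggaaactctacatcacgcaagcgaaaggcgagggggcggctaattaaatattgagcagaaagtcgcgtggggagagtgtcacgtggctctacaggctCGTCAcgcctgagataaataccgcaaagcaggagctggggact
Cck: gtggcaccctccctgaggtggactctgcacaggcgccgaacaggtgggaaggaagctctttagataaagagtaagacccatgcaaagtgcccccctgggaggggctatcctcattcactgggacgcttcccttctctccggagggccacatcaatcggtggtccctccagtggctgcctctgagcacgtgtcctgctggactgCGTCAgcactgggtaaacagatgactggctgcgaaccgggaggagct
Nts: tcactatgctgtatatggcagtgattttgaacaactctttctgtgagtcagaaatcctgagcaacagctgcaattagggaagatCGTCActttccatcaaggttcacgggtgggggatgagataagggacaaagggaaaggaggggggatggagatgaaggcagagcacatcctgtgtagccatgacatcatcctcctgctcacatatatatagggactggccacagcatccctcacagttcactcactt

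Across the 6 regions the 8 transcripts were far from even. A limma fit over all genes compared each region with the average of the 5 remaining ones, with 2 arrays for a region, 1 of each genotype, and genotype as a covariate, and a gene was called where the adjusted p was under 0.05 and the difference at least 2-fold. Of the 48 pairs of gene and region, 26 were called, 14 higher and 12 lower, and the same 26 were called in the 11 arrays without the one labelled amygdala WT. Among all genes tested with 12 arrays, the share called in either direction was 22.9% for striatum, 12.6% for olfactory bulb, 7.51% for hippocampus, 7.11% for amygdala, 5.90% for prefrontal cortex and 3.54% for hypothalamus. With 11 arrays it was 23.6%, 13.3%, 7.64%, 10.9%, 5.60% and 3.84% in the same order. The members called, higher and lower, numbered 1 and 3 in olfactory bulb, 3 and 2 in prefrontal cortex, 1 and 4 in striatum, 4 and 1 in amygdala, 1 and 2 in hippocampus, and 4 and 0 in hypothalamus, with either set of arrays. Every region thus called at least 3 of the 8 genes. The median difference of the 8 genes, with that of all genes tested after it, was 1.32 and -0.093 in hypothalamus, 1.27 and -0.15 in amygdala, 0.43 and 0.018 in prefrontal cortex, -0.27 and 0.088 in hippocampus, -0.62 and 0.036 in olfactory bulb, and -0.70 and 0.088 in striatum. These counts and medians describe the 8 genes and are no test of them as a set. Because the 2 arrays of a region differ in genotype, the spread behind each SE includes any KO effect that differed between regions. In pooled tissue, fewer cells that make a transcript and less transcript per cell cannot be told apart.

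**Figure D1:**
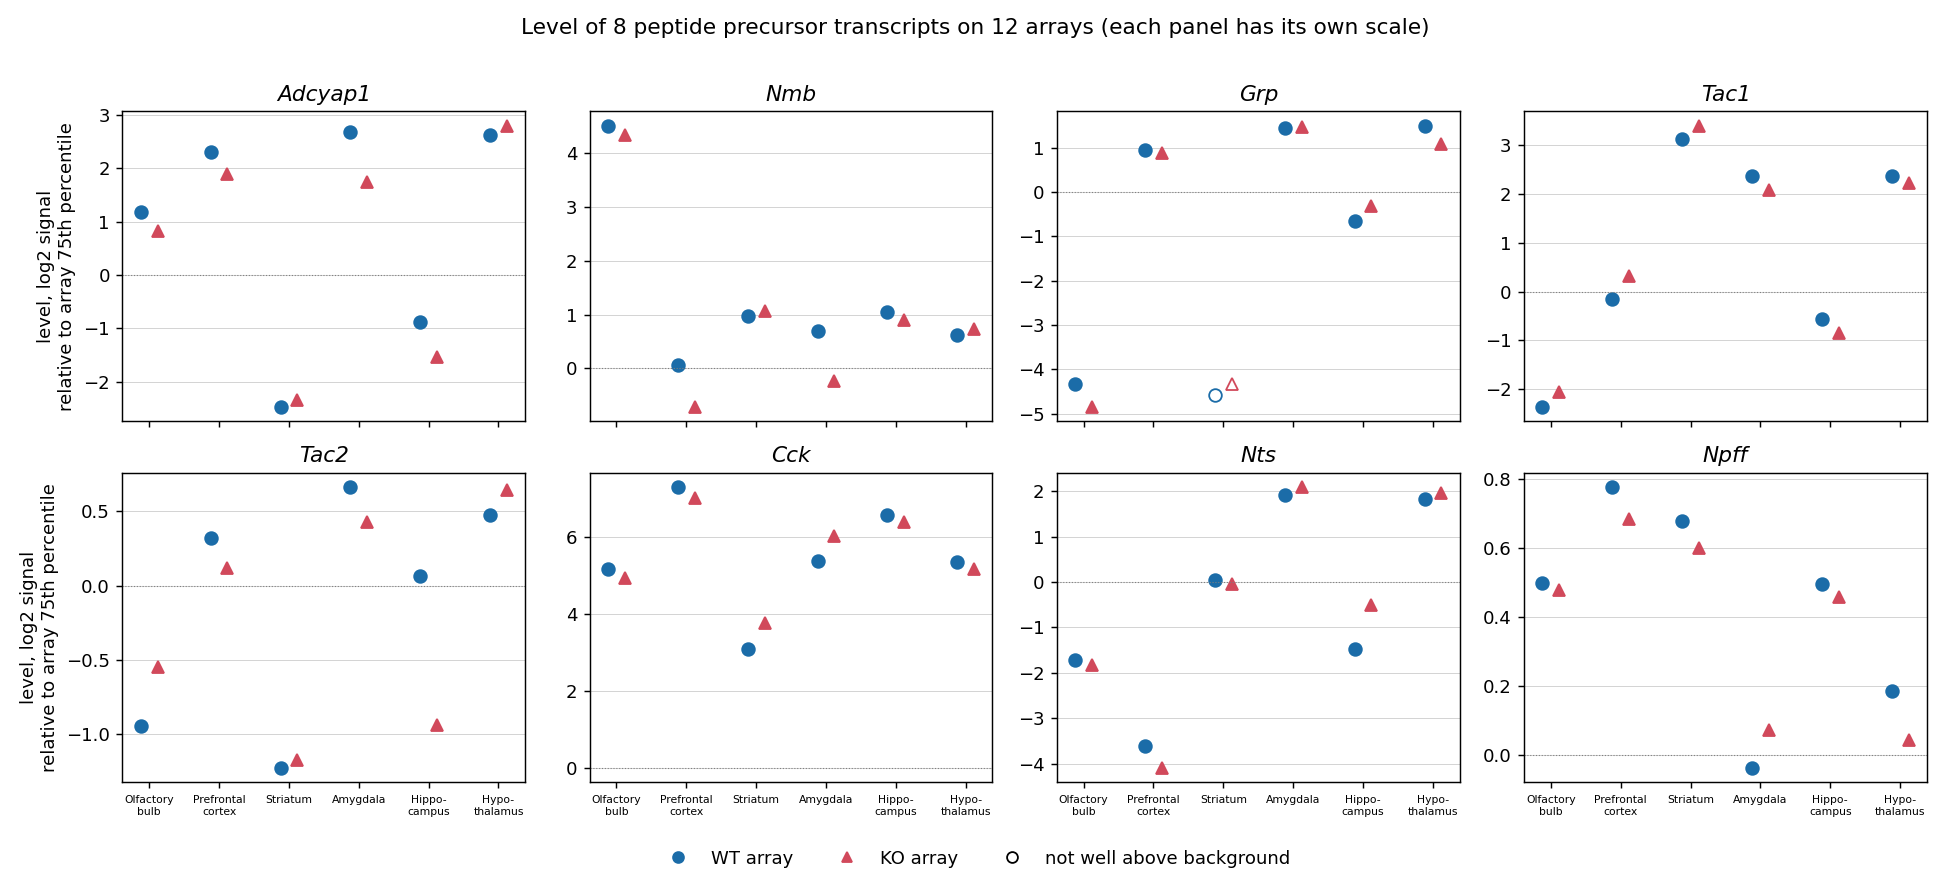
Level of each transcript (y axis, log2 signal relative to the array's 75th percentile, own scale per panel) in the 6 regions (x axis), with a blue circle for the WT array, a red triangle for the KO array and an open symbol where the spot was not well above background. Each point is 1 array of pooled RNA from 5 mice. Nmb stands highest in olfactory bulb (4.52 and 4.35), Tac1 in striatum (3.12 and 3.40), and Npff spans only 0.81 over all 12 arrays.

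PACAP, encoded by Adcyap1, raises cyclic AMP in its target neurons and is known for roles in stress responses and circadian timing. Its level was 1.18 on the WT and 0.83 on the KO array of olfactory bulb, 2.31 and 1.89 in prefrontal cortex, -2.47 and -2.34 in striatum, 2.68 and 1.75 in amygdala, -0.87 and -1.53 in hippocampus, and 2.62 and 2.81 in hypothalamus. Hypothalamus, amygdala and prefrontal cortex were high and their ranges overlapped in that order, while olfactory bulb, hippocampus and striatum lay apart below them with no overlap between neighbours. These overlaps of amygdala rest on the array labelled amygdala WT. The amygdala KO array alone, at 1.75, lay below all arrays of hypothalamus and prefrontal cortex. In hypothalamus the transcript was 5.18-fold higher than the mean of the other regions (log2 difference 2.37, SE 0.21, adjusted p = 0.00109), in amygdala 3.42-fold (1.77, SE 0.21, adjusted p = 0.00145) and in prefrontal cortex 3.1-fold (1.63, SE 0.21, adjusted p = 0.00179). It was 13.6-fold lower in striatum (-3.77, SE 0.21, adjusted p = 1.81e-05) and 5.01-fold lower in hippocampus (-2.33, SE 0.21, adjusted p = 0.000446). Without the array labelled amygdala WT the amygdala difference rested on the KO array alone and was 1.42 (SE 0.24, adjusted p = 0.0104).

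Neuromedin B, known in rodents for effects on itch, breathing and feeding, stood out in a single region. The level of Nmb was 4.52 on the WT and 4.35 on the KO array of olfactory bulb, 0.06 and -0.72 in prefrontal cortex, 0.98 and 1.07 in striatum, 0.70 and -0.23 in amygdala, 1.05 and 0.90 in hippocampus, and 0.62 and 0.73 in hypothalamus. Both olfactory bulb arrays lay above all 10 others. Striatum overlapped hippocampus, and hypothalamus, amygdala and prefrontal cortex overlapped in turn. The overlap of amygdala with hypothalamus rests on the array labelled amygdala WT. Amygdala KO alone, at -0.23, lay below both hypothalamus arrays and between those of prefrontal cortex. Nmb was 15.1-fold higher in olfactory bulb than in the mean of the other regions (3.92, SE 0.21, adjusted p = 2.17e-05). It was 3.47-fold lower in prefrontal cortex (-1.79, SE 0.21, adjusted p = 0.00139) and 2.18-fold lower in amygdala (-1.12, SE 0.21, adjusted p = 0.00641). The amygdala call was lost without the amygdala KO array (-0.74, adjusted p = 0.0732), and it was -1.50 (SE 0.24, adjusted p = 0.00902) without the one labelled amygdala WT.

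Gastrin-releasing peptide, the other bombesin-like member and a marker of subsets of excitatory neurons in cortex and amygdala, took nearly the opposite course. The level of Grp was -4.33 on the WT and -4.85 on the KO array of olfactory bulb, 0.94 and 0.89 in prefrontal cortex, 1.46 and 1.47 in amygdala, -0.66 and -0.31 in hippocampus, and 1.51 and 1.10 in hypothalamus. In striatum the readings were -4.57 and -4.34, not well above background on either array. Amygdala and hypothalamus overlapped at the top, prefrontal cortex and hippocampus followed with gaps, and olfactory bulb lay far below. Grp was 7.59-fold higher in amygdala than in the mean of the other regions (2.92, SE 0.17, adjusted p = 0.000324), 6.64-fold in hypothalamus (2.73, SE 0.17, adjusted p = 0.000400) and 4.83-fold in prefrontal cortex (2.27, SE 0.17, adjusted p = 0.000271). It was 20.2-fold lower in olfactory bulb (-4.34, SE 0.17, adjusted p = 6.71e-06). The dim striatum readings enter the mean behind each of these folds at their measured values. Striatum gave a bound only, set by the dimmest spots well above background there. Grp in striatum was at least 12.7-fold lower than the mean of the other 5 regions. It was at least 42.6-fold lower there than in amygdala and at least 11.1-fold lower than in hippocampus. These bounds carry no test, and the limma adjusted p of 7.50e-06 belongs to the difference of -4.18 from the dim readings as measured. In hippocampus the difference of 0.59 passed the adjusted p (0.0314) but not the fold, and without both amygdala arrays it was 1.22 and called. With 11 arrays the amygdala difference was 2.97 (SE 0.25, adjusted p = 0.00441).

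Tac1 encodes substance P and neurokinin A, the tachykinins of striatal projection neurons and of pain and stress circuits. Its level was -2.36 on the WT and -2.05 on the KO array of olfactory bulb, -0.15 and 0.32 in prefrontal cortex, 3.12 and 3.40 in striatum, 2.36 and 2.08 in amygdala, -0.57 and -0.84 in hippocampus, and 2.37 and 2.22 in hypothalamus. Striatum was highest with no overlap, hypothalamus and amygdala overlapped below it, and prefrontal cortex, hippocampus and olfactory bulb followed in that order, each apart from the next. That overlap rests on the array labelled amygdala WT, as amygdala KO, at 2.08, lay below both hypothalamus arrays. Tac1 was 7.55-fold higher in striatum than in the mean of the other regions (2.92, SE 0.16, adjusted p = 1.84e-05), 3.40-fold in hypothalamus (1.76, adjusted p = 0.00121) and 3.20-fold in amygdala (1.68, adjusted p = 0.000991). It was 12.4-fold lower in olfactory bulb (-3.63, SE 0.16, adjusted p = 1.14e-05) and 3.57-fold lower in hippocampus (-1.83, adjusted p = 0.000423). In prefrontal cortex the difference of -0.89 (adjusted p = 0.00697) was short of 2-fold, and it was called, at -1.14, without the prefrontal cortex KO array. The amygdala difference was 1.47 (SE 0.22, adjusted p = 0.00775) without the array labelled amygdala WT.

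Tac2, the precursor of neurokinin B, a peptide known for the control of reproductive hormones in the hypothalamus and for expression in the habenula, varied less. Its level was -0.94 on the WT and -0.54 on the KO array of olfactory bulb, 0.32 and 0.12 in prefrontal cortex, -1.23 and -1.17 in striatum, 0.66 and 0.43 in amygdala, 0.06 and -0.93 in hippocampus, and 0.47 and 0.64 in hypothalamus. Hypothalamus and amygdala overlapped at the top, striatum was lowest with no overlap, and the arrays of hippocampus were so far apart that they overlapped olfactory bulb. The overlap at the top rests on the array labelled amygdala WT, as amygdala KO, at 0.43, lay just below both hypothalamus arrays. Only the striatum was called, 2.34-fold lower than the mean of the others (-1.23, SE 0.23, adjusted p = 0.00277), and with normexp background correction this difference was -0.90, short of 2-fold. Hypothalamus (0.88, adjusted p = 0.0294) and amygdala (0.86, adjusted p = 0.0210) passed the adjusted p but not the fold. With 11 arrays amygdala stood at 0.80 (adjusted p = 0.113). Without both amygdala arrays the hypothalamus difference was 1.10 and called.

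Cholecystokinin, made by pyramidal neurons and by a class of interneurons, is known for its abundance in cortex. The level of Cck was 5.18 on the WT and 4.94 on the KO array of olfactory bulb, 7.30 and 7.02 in prefrontal cortex, 3.09 and 3.78 in striatum, 5.37 and 6.03 in amygdala, 6.59 and 6.40 in hippocampus, and 5.35 and 5.18 in hypothalamus. The order was prefrontal cortex, hippocampus, amygdala, hypothalamus, olfactory bulb and striatum, with no overlap between neighbours, although the nearest arrays of hypothalamus and olfactory bulb both read 5.18 and those of amygdala and hypothalamus were 0.02 apart. That nearest amygdala array was the one labelled amygdala WT, and amygdala KO read 6.03. Cck was 3.91-fold higher in prefrontal cortex than in the mean of the other regions (1.97, SE 0.22, adjusted p = 0.00114) and 5.66-fold lower in striatum (-2.50, SE 0.22, adjusted p = 8.89e-05). Hippocampus was 2.25-fold higher (1.17, SE 0.22, adjusted p = 0.00743). That call was lost without either hippocampus array, with adjusted p = 0.0895 without WT and 0.0501 without KO.

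Neurotensin, which modulates dopamine transmission and body temperature, was highest in amygdala and hypothalamus and lowest in prefrontal cortex. The level of Nts was -1.72 on the WT and -1.83 on the KO array of olfactory bulb, -3.60 and -4.10 in prefrontal cortex, 0.04 and -0.04 in striatum, 1.92 and 2.09 in amygdala, -1.47 and -0.51 in hippocampus, and 1.82 and 1.95 in hypothalamus. Amygdala and hypothalamus overlapped at the top, then came striatum, hippocampus, olfactory bulb and prefrontal cortex, each apart from the next. Their overlap rests on the array labelled amygdala WT, as amygdala KO, at 2.09, lay above both hypothalamus arrays. Nts was 7.73-fold higher in amygdala than in the mean of the other regions (2.95, SE 0.23, adjusted p = 0.000625) and 6.99-fold higher in hypothalamus (2.81, SE 0.23, adjusted p = 0.000961). It was 16.8-fold lower in prefrontal cortex (-4.07, SE 0.23, adjusted p = 0.000131) and 3.0-fold lower in olfactory bulb (-1.58, SE 0.23, adjusted p = 0.00140). Without the array labelled amygdala WT the amygdala difference was 2.99 (SE 0.35, adjusted p = 0.00545). Striatum stood at 0.55 (adjusted p = 0.0735), and at 1.18 and called without both amygdala arrays, while hippocampus, at -0.64 (adjusted p = 0.0676), was called at -1.17 without its KO array.

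Neuropeptide FF, known for opposing opioid effects in pain pathways, was the evenest of the 8. The level of Npff was 0.50 on the WT and 0.48 on the KO array of olfactory bulb, 0.78 and 0.69 in prefrontal cortex, 0.68 and 0.60 in striatum, -0.04 and 0.07 in amygdala, 0.50 and 0.46 in hippocampus, and 0.19 and 0.05 in hypothalamus. Its span over the 12 arrays was 0.81, beside spans of 1.89 for Tac2 and from 4.21 to 6.35 for the other 6. No region was 2-fold apart from the rest, though small differences passed the adjusted p. Prefrontal cortex was 0.38 higher (SE 0.068, adjusted p = 0.00621) and striatum 0.27 higher (adjusted p = 0.00982). Amygdala was lower by -0.47 (adjusted p = 0.00257) and hypothalamus by -0.35 (adjusted p = 0.0105). The array median relative to the 75th percentile ran from -2.88 on amygdala KO to -2.39 on olfactory bulb WT, a spread of similar size. The region fits were not run with scaling by the array median, so whether these differences hold under it was not tested. Amygdala overlapped hypothalamus, and olfactory bulb overlapped hippocampus.

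**Figure D2:**
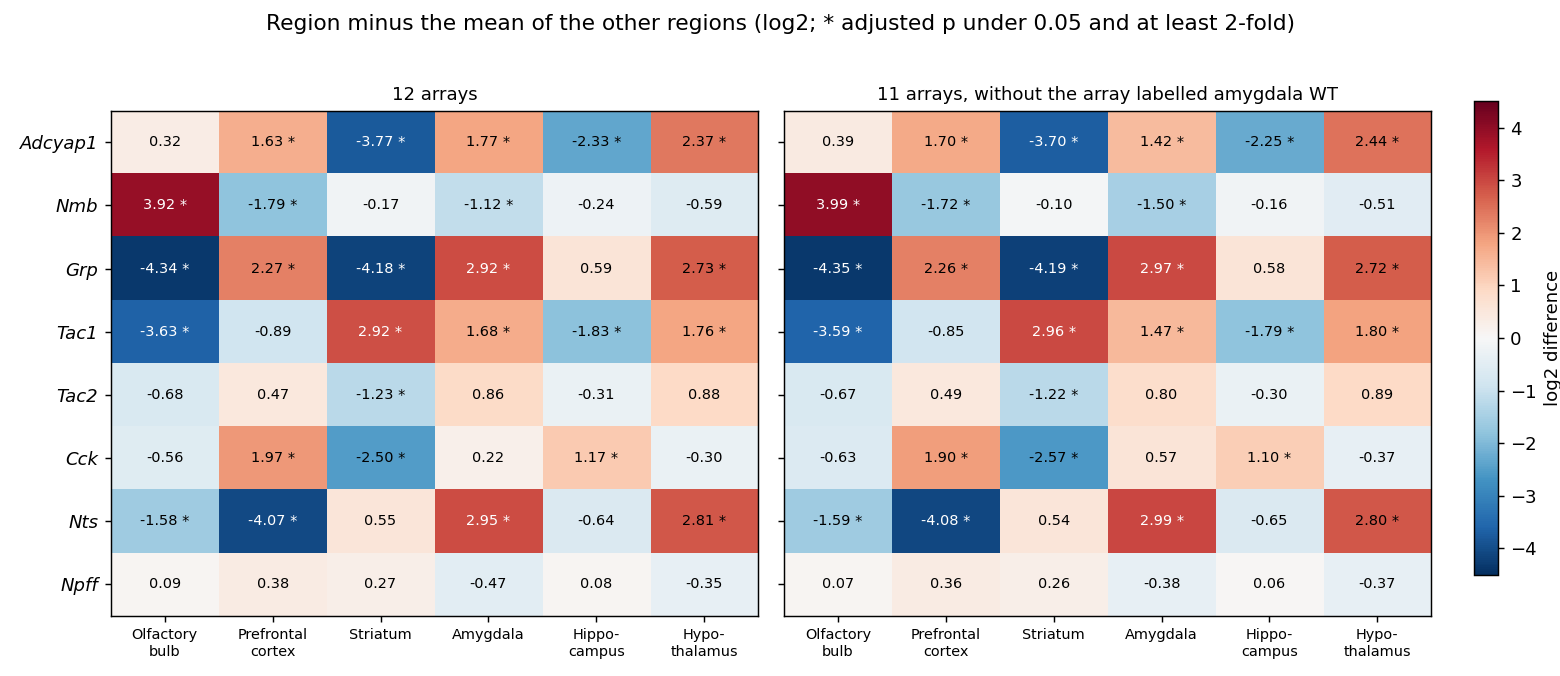
Log2 difference between each region (x axis) and the mean of the other regions for the 8 genes (y axis), with 12 arrays on the left and with 11 arrays, without the one labelled amygdala WT, on the right. Red is higher, blue lower, and an asterisk marks an adjusted p under 0.05 with at least 2-fold. The same 26 cells carry an asterisk in both panels, and Npff has none.

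Because the array labelled amygdala WT resembled hypothalamus, the 8 transcripts were also read on the 4 arrays of these regions. Over 8747 genes bright on all arrays, the median absolute log2 difference between that array and hypothalamus WT was 0.0742, rank 2 of the 66 pairs of arrays and next to the hypothalamus pair itself (0.0739), while the amygdala pair stood at 0.195, rank 10. On these WT arrays the 8 genes were 0.22 apart at most, with a median absolute difference of 0.071. Between the KO arrays of the same regions the median was 0.29. There Adcyap1 differed by -1.06 (amygdala minus hypothalamus), Nmb by -0.97, Cck by 0.85 and Grp by 0.37, and the other 4 by at most 0.22 in size. Peptides that define the hypothalamus were much further apart between these KO arrays, with Pmch at -7.57, Oxt at -6.81, Hcrt at -6.66 and Avp at -4.96. On the amygdala KO array, where the hypothalamus markers summed to 2.77, Nts stood 3.74 above the mean of the 8 arrays of the other 4 regions, Grp 3.62, Tac1 1.97 and Adcyap1 1.87. With 1 array these last values carry no test.

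**Figure D3:**
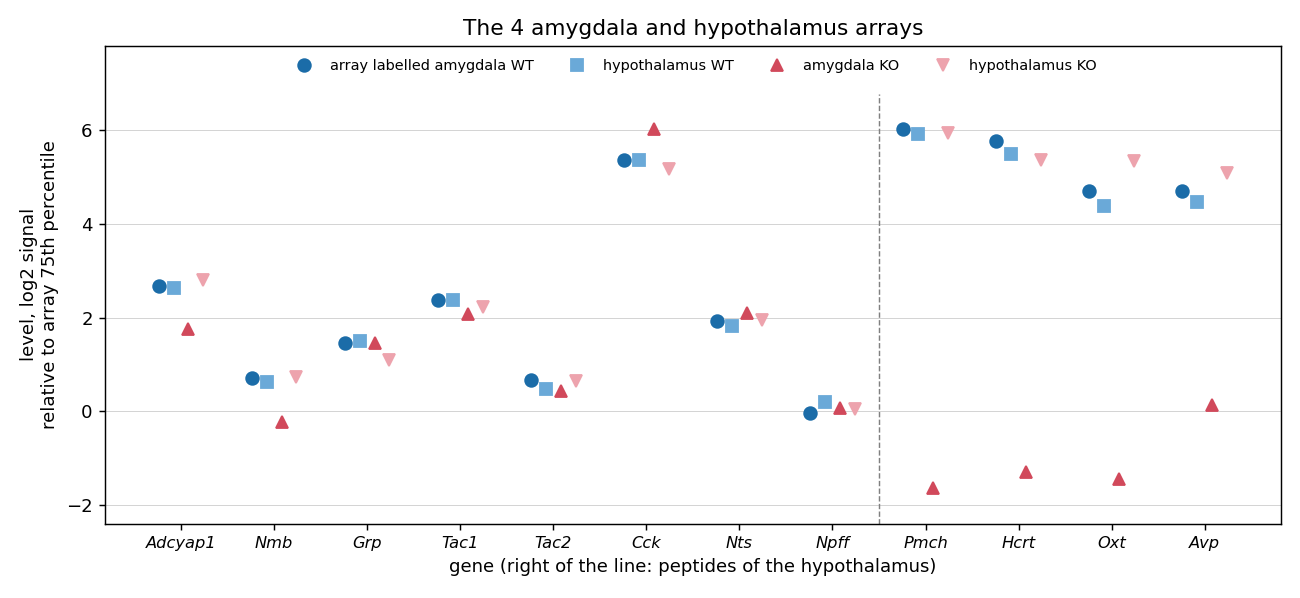
Level (y axis, log2 signal relative to the array's 75th percentile) on the array labelled amygdala WT (dark blue circle), hypothalamus WT (light blue square), amygdala KO (red upward triangle) and hypothalamus KO (pink downward triangle), for the 8 genes and, right of the dashed line, 4 peptide genes of the hypothalamus. Both WT symbols coincide within 0.33 for every gene, and the amygdala KO symbol lies more than 2-fold below hypothalamus KO for Adcyap1 (-1.06), Pmch, Hcrt, Oxt and Avp.

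Whether loss of IL-18 changed these transcripts was tested over the 6 regions, with region as a block. None of the 8 passed, at the adjusted or at an unadjusted p under 0.05, in a limma fit that called 10 of 24862 genes (0.0402%), and the adjusted p ran from 0.240 to 0.809. The median KO minus WT difference was -0.054 over the 8 and -0.023 over all genes. Regions may come from shared mice and are then not independent, so the p-values describe likeness between regions and overstate the evidence about the genotype. Adcyap1 differed by -0.34 (SE 0.16, 95% interval -0.71 to 0.03, lower on KO in 4 of 6 regions), Nmb by -0.31 (SE 0.16, -0.68 to 0.07, lower in 4 of 6) and Tac2 by -0.13 (SE 0.17, -0.54 to 0.27). Both Adcyap1 and Nmb leaned on the amygdala pair: without it they differed by -0.22 and -0.18. Nts differed by 0.10 (SE 0.17, -0.31 to 0.50), Cck by 0.08 (SE 0.17, -0.32 to 0.47), Tac1 by 0.06 (SE 0.12, -0.23 to 0.35), Grp by -0.06 (SE 0.12, -0.36 to 0.23) and Npff by -0.04 (SE 0.051, -0.16 to 0.08). The intervals of Npff, Grp and Tac1 lie within 0.36 of 0 on the log2 scale, while those of the other 5 reach beyond it in 1 direction or both. The signs of Grp, Tac1, Tac2, Cck and Nts turned when some regions were left out.

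Within single regions no member was past 2-fold in any of the 47 pairs measured on both arrays. These single pairs allow no test. The share of all measured genes past 2-fold was 6.86% for amygdala, 4.33% for prefrontal cortex, 1.75% for hippocampus, 1.56% for striatum, 0.987% for hypothalamus and 0.924% for olfactory bulb. The scanner software's error for such a difference, which covers the spot and not the mice, was about 0.20 for bright members and 0.35 for Grp in olfactory bulb.

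The nearest to 2-fold lay in hippocampus, where Tac2 was 0.06 on the WT and -0.93 on the KO array, a difference of -0.996 and a 1.99-fold ratio. Scaling by the array median put it at -1.01, past 2-fold. Nts went the other way there, from -1.47 to -0.51, a difference of 0.96. The same pair differed in markers of neighbouring tissue: 5 of 6 habenula markers were lower on the KO array, with a median of -1.12 and a summed linear level of 2.08 against 1.18, and 5 and 4 of them above background, while 6 of 6 choroid plexus markers were higher, with a median of 0.71 and sums of 10.9 and 19.6. Their part in the Tac2 and Nts values was not tested.

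In amygdala Adcyap1 and Nmb each differed by -0.94, Cck by 0.66 and the other 5 by at most 0.28 in size. On that pair the KO array was lower for 10 of 10 hypothalamus markers (median -3.90, sums of 179 and 2.77) and for 6 of 6 choroid plexus markers (median -2.38, sums of 17.8 and 4.30), and higher for 8 of 8 cortex markers (median 0.56, sums of 6.65 and 11.3), and their part in these values was not tested. Above background on each of these arrays were 9 of the hypothalamus markers, 6 of the choroid plexus markers and 8 of the cortex markers. Under scaling by the array median, the median over all genes on this pair went from -0.054 to 0.16, and the differences of Adcyap1, Nmb and Cck to -0.72, -0.72 and 0.87. Of all genes past 2-fold in amygdala 7.59% were higher on KO, and 28.8% under median scaling. The same scaling moved that share from 20.0% to 33.4% in prefrontal cortex and from 51.3% to 40.5% in striatum.

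In prefrontal cortex Nmb differed by -0.78, and on that pair 4 of 5 olfactory bulb markers were lower on KO, with sums of 1.38 and 0.637, 4 of 5 above background on each array. In striatum Cck differed by 0.69, with 5 of 8 cortex markers higher on KO and sums of 8.20 and 8.91, and 6 of 6 choroid plexus markers higher, with sums of 2.70 and 4.47. Above background on WT and KO were 5 and 8 of these cortex markers, and 2 and 5 of the choroid plexus markers. The part of these marker lists was not tested. All other members lay within 0.66 in size of 0 in their remaining regions. Whether the amygdala differed from the other 5 regions in its KO effect was tested as an interaction, which called 66 of 24841 genes (0.266%) and none of the 8, with adjusted p from 0.400 for Nmb (-0.76, SE 0.34) to 0.957 for Nts (0.08, SE 0.50). No member reached an unadjusted p under 0.05 there. The amygdala side of this interaction is the single pair that holds the array labelled amygdala WT, which resembled hypothalamus. Tissue and genotype cannot be told apart on that pair, so the interaction cannot be read as a KO effect alone. The interval for Nmb ran from -1.59 to 0.08 and that for Adcyap1 (-0.71) from -1.56 to 0.13.

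**Figure D4:**
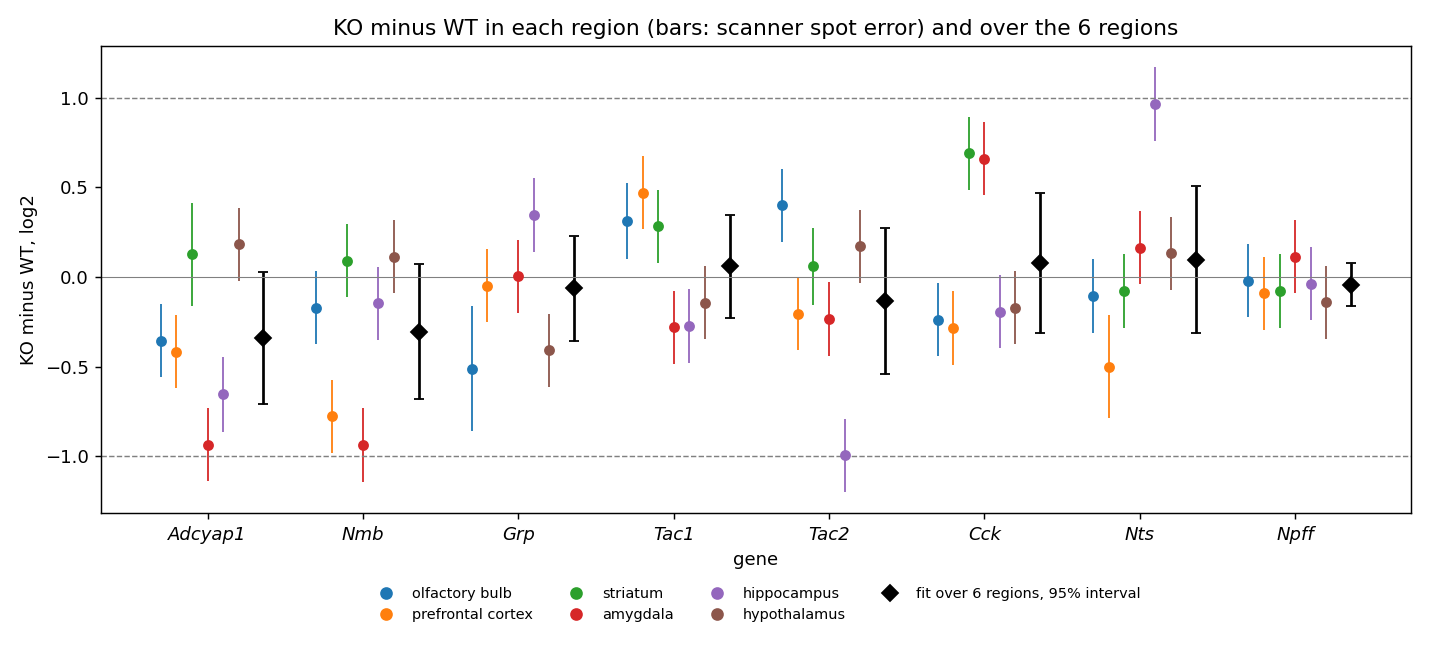
KO minus WT difference (y axis, log2) of each gene (x axis), as 1 coloured point per region with the scanner software's spot error as bar, and as a black diamond for the fit over the 6 regions with its 95% interval. Dashed lines mark 2-fold. No point passes them, the farthest are Tac2 and Nts in hippocampus (-0.996 and 0.96), and every diamond's interval includes 0.

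The receptors of these peptides were followed as a list of 16 genes, of which 15 had a probe (Npffr1 had none here) and 10 were bright enough for the tests. Nmbr, the receptor of neuromedin B, was not well above background on any array, Brs3, an orphan receptor of the bombesin family, on 1 array only, and Vipr2, shared by PACAP and vasoactive intestinal peptide, only on both olfactory bulb arrays (-3.33 and -3.11). Over the 10 tested, calls higher and lower numbered 1 and 1 in olfactory bulb, 2 and 2 in prefrontal cortex, 2 and 4 in striatum, 4 and 1 in amygdala, 0 and 3 in hippocampus and 4 and 0 in hypothalamus. The shares of all genes called in either direction were 12.6%, 5.90%, 22.9%, 7.11%, 7.51% and 3.54% in the same order. The receptor counts are no test of the list as a set. They were the same with 11 arrays, though in amygdala Grpr was then replaced by Cckbr among the 4.

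Adcyap1r1, the selective PACAP receptor, was 2.23-fold higher in olfactory bulb than in the mean of the others (1.16, SE 0.063, adjusted p = 2.13e-05) and 3.80-fold lower in striatum (-1.92, SE 0.063, adjusted p = 4.37e-06), and ranged from 0.44 to 3.20. Its peptide was also lowest in striatum. Grpr, the receptor of gastrin-releasing peptide, was well above background on 8 arrays and on none from olfactory bulb or striatum, the regions where Grp itself was lowest. It was at least 11.7-fold lower in olfactory bulb than in hypothalamus and at least 4.44-fold lower in striatum. In hypothalamus it was 2.59-fold higher than the mean of the others (1.37, adjusted p = 0.00258), in amygdala 2.15-fold and in prefrontal cortex 2.10-fold, with the dim readings of olfactory bulb and striatum in that mean.

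Tacr1, the substance P receptor, was 2.85-fold higher in striatum (1.51, SE 0.13, adjusted p = 8.23e-05), 2.42-fold in amygdala and 2.21-fold in hypothalamus, and 6.61-fold lower in prefrontal cortex (-2.73, SE 0.13, adjusted p = 9.40e-05) and 4.42-fold lower in hippocampus. Those 3 regions of higher Tacr1 are the 3 in which Tac1 was called higher. Tacr3, the neurokinin B receptor, was well above background only on the arrays of olfactory bulb, amygdala and hypothalamus. It was 5.03-fold higher in hypothalamus and 4.58-fold in amygdala than in the mean of the others, with dim readings entering that mean, and at least 7.68-fold lower in prefrontal cortex than in hypothalamus. Tacr2, the neurokinin A receptor, passed on 4 arrays and was at least 4.18-fold higher on the KO than on the WT array of striatum (-1.72 on KO), but at least 2.33-fold higher on WT in olfactory bulb (-4.07 on WT), each a single pair with no test. With normexp background correction these KO minus WT differences were 0.54 and -0.50, short of 2-fold.

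Cckbr, the main cholecystokinin receptor of the brain, was 3.95-fold higher in prefrontal cortex (1.98, SE 0.18, adjusted p = 0.000539) and 4.64-fold lower in striatum (-2.21, SE 0.18, adjusted p = 6.24e-05), as Cck was, but 3.43-fold lower in hippocampus (-1.78, SE 0.18, adjusted p = 0.000677), where Cck was higher. Cckar, the receptor better known from the gut, was well above background only on the 4 amygdala and hypothalamus arrays, at -2.01 on the array labelled amygdala WT, -3.49 on amygdala KO, and -1.94 and -1.53 in hypothalamus. Its amygdala difference of -1.48 was the only receptor value past 2-fold among 11 measured on the amygdala pair. Of all genes measured on that pair, 6.86% were past 2-fold. Tissue and genotype cannot be told apart there, since the array labelled amygdala WT resembled hypothalamus. The neurotensin receptor Ntsr1 was higher in amygdala (1.09, adjusted p = 0.00109) and hypothalamus (1.02, adjusted p = 0.00202), as Nts was, and 3.02-fold lower in striatum. Ntsr2, a receptor that astrocytes are known to express, and Sort1, the sorting protein sortilin that also binds neurotensin, were called in no region, with ranges of 2.84 to 3.46 and 2.84 to 4.11. Npffr2, a neuropeptide FF receptor, was 4.71-fold higher in striatum (2.24, SE 0.11, adjusted p = 1.24e-05) and 2.16-fold lower in amygdala. Vipr1, which also binds PACAP, ranged from -3.24 to -1.74 and was called in no region.

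No receptor passed in KO minus WT over regions or in the amygdala interaction, each with 10 tested by limma, while 1 and 4 of them had an unadjusted p under 0.05. The share of all genes under that p is not given here, so these counts are not read as a change of the receptors. The interaction also rests on the array labelled amygdala WT. Adcyap1r1 came nearest over regions, 0.16 higher on KO (SE 0.047, adjusted p = 0.130, higher in 6 of 6 regions).

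**Figure D5:**
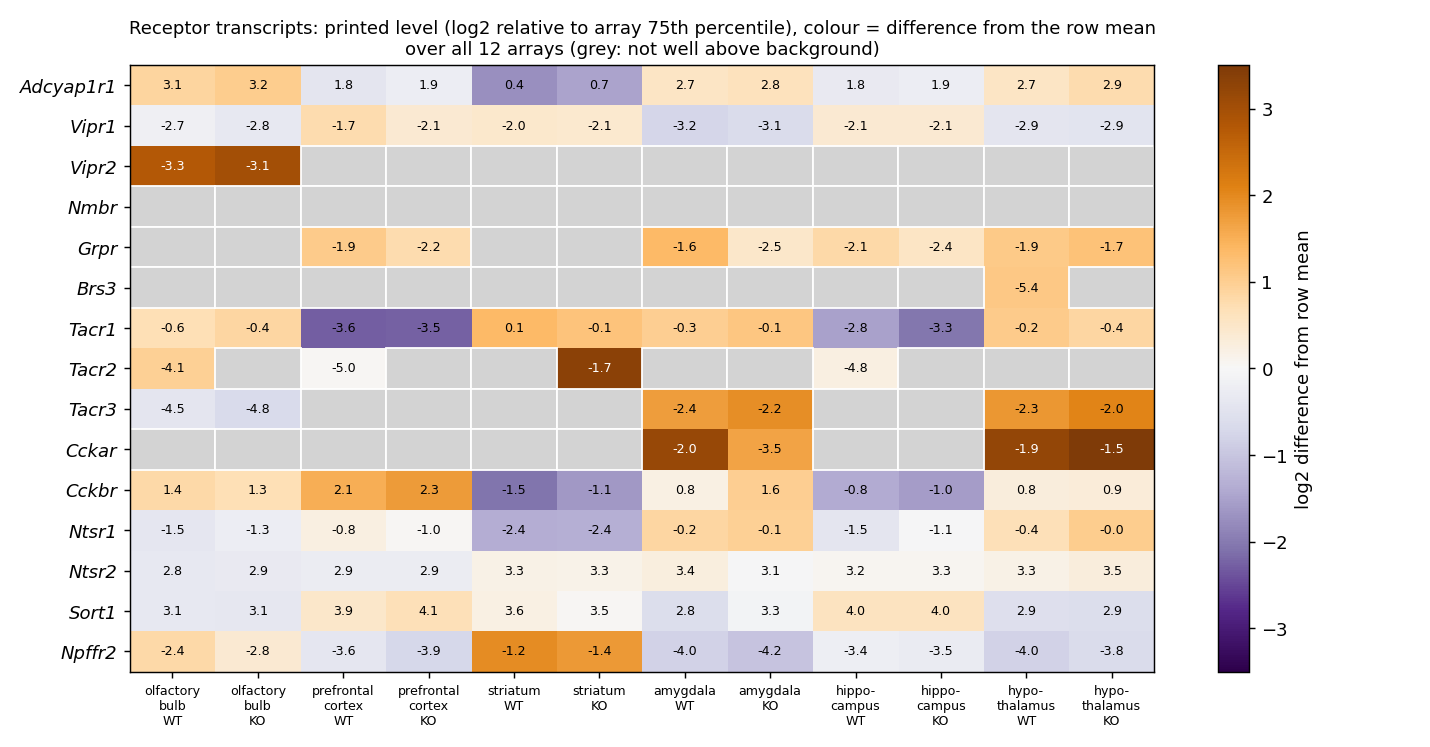
Levels of 15 receptor transcripts (rows) on the 12 arrays (columns), printed as log2 signal relative to the array's 75th percentile and coloured by the difference from the gene's mean over all 12 arrays, grey where the spot was not well above background. Grpr is grey on the olfactory bulb and striatum arrays, Cckar is read only on the amygdala and hypothalamus arrays, and Nmbr on none.

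Some of the 8 transcripts shared their regional course. Over the 11 arrays without the one labelled amygdala WT, Pearson's r was 0.86 between Grp and Tac2, 0.83 between Adcyap1 and Tac2, and 0.61 between Tac1 and Nts. It was -0.83 between Nts and Npff and -0.74 between Nmb and Grp. Between peptide and receptor, r was 0.92 for Grp and Grpr, 0.74 for Adcyap1 and Adcyap1r1, 0.74 for Nts and Ntsr2, 0.55 for Cck and Cckbr, 0.52 for Npff and Npffr2 and 0.45 for Tac1 and Tacr1. It was 0.35 for Tac2 and Tacr3, 0.32 for Nts and Ntsr1, -0.14 for Cck and Cckar and -0.62 for Nts and Sort1, which completes the 10 pairs computed. These r describe 11 arrays that come in pairs from 6 regions and share the scaling of each array, so they carry no p, and for Grp, Grpr, Tacr3 and Cckar they include dim readings.

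Among all named genes tested, those most like each member by r over the same 11 arrays were as follows. Btg1 (0.99), Carmil1 (0.98) and Fetub (0.98) were most like Nmb, and Metrnl, Slit2 and Snx10 (each 0.99) most like Grp. Fam83h (0.97), Grk3 and Fbxw9 (each 0.96) were most like Adcyap1. Rpl31 (0.98), Nit2 and Fbxl21 (each 0.97) were most like Tac1, and AW209491 (0.98), Wipi2 and Sec22c (each 0.95) most like Tac2. Olfm1 (0.99), Evc2 and Arhgap15 (each 0.98) were most like Cck. Pdzd3, Gdpd2 and Adgrg2 (each 0.94) were most like Nts, and Spatc1 (0.98), Ptk2 and Slc51b (each 0.96) most like Npff. These matches were picked as the highest r among all named genes tested and describe likeness alone.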

How the data were processed

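Per the labels and file headers, RNA was labelled with Cy3, hybridised to one-colour Agilent arrays and read with Feature Extraction 9.5.3.1. The deposited scanner files hold the processed signal of each spot as an intensity, background-corrected by that software per the file headers, and the authors' deposited tables hold a ratio of KO over WT per spot. For genes whose probe has 1 spot, as all members have, their log2 ratios were the same as those computed here up to a constant per region between -0.0137 and 0.0078, with deviations of at most 0.0069.

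From the intensity, log2 was taken after division by the array's 75th percentile. Control spots and outlier flags were left out, repeated spots averaged, and probes named by accession through a RefSeq table (22951 of 41174 probes, 55.7%). The probe brightest on average stood for a gene, which was tested if well above background on at least 6 of 12 arrays. Limma 3.58.1 in R 4.3.3 was fitted to all such genes, with Benjamini-Hochberg adjustment, and was tested on simulated data first. A bound sets the bright group against the lowest signal well above background on the dim arrays, or the dim probe's own signal if higher. Levels on 1 array per region and genotype carry no replicate error, and the number of arrays limits the precision. The arrays carry no mean signal per spot, so the normexp alternative (offset 50) used the median signal. The members and lists were chosen with earlier results of these data known. All members, the listed receptors, the peptidases by counts and the 3 genes most like each member are named.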

Additional observations from a re-analysis of the deposited data

How the results depend on the processing

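The reported KO minus WT fit already pairs the WT and KO array of each region through the region block. Of the 8 genes, none was called in KO minus WT over regions or in the amygdala interaction under any alternative run. Signs turned without a call over regions, when 1 region was left out, with ranges of -0.15 to 0.025 for Grp (also 0.0046), -0.022 to 0.13 for Tac1, -0.24 to 0.038 for Tac2, -0.046 to 0.15 for Cck (also -0.040) and -0.078 to 0.21 for Nts. In the interaction they turned for Nts (-0.0080 with quantile normalization, -0.014 with normexp, -0.064 to 0.30 without 1 region), Grp (-0.026 to 0.19, also -0.00088) and Tac2 (-0.34 to 0.0075). Between regions they turned for Npff in olfactory bulb (-0.0040) and hippocampus (-0.016) without both amygdala arrays, for Grp in hippocampus with normexp (-0.12), and without 1 array for Nmb in striatum (-0.41 to 0.064), Cck in amygdala (-0.13 to 0.57) and Tac2 in hippocampus (-0.83 to 0.21). The cause was not tested. Of the region values of the 8 genes under alternatives, 883 kept direction and side of the threshold, 5 gained a call and 4 lost one, all given with the regions above.

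Counts over all genes moved more. KO minus WT over regions called 10 genes, 16 with quantile normalization, 719 with normexp, 20 with the filter of all 12 arrays, and 1 to 5 without 1 region. The interaction called 66, and 42, 426, 120 and 2 to 71 in the same order. Region calls with normexp were 1694 (olfactory bulb), 663 (prefrontal cortex), 462 (amygdala), 742 (hippocampus) and 381 (hypothalamus), and with the filter of 12 arrays 977 (prefrontal cortex), 990 (amygdala), 1013 (hippocampus) and 559 (hypothalamus). With no filter they were 9743 in striatum and 1707 in hypothalamus, with quantile normalization 1027 in amygdala, without the array labelled amygdala WT 2714 in amygdala, and without both amygdala arrays 1734 in hypothalamus. Leaving out 1 array gave 2633 to 3407 in olfactory bulb, 1178 to 1640 in prefrontal cortex, 5520 to 6013 in striatum, 1311 to 2714 in amygdala, 1358 to 1997 in hippocampus and 551 to 955 in hypothalamus. Genes past 2-fold between genotypes numbered 237, 1021, 312, 1554, 431 and 244 from olfactory bulb to hypothalamus in the order of the regions above, 68, 210, 69, 564, 97 and 57 with normexp, and 620, 1805, 1088, 2347, 992 and 583 with 1 array above background enough. The authors' deposited ratios gave 138 in olfactory bulb, 665 in prefrontal cortex and 182 in striatum. Grp in striatum, Nmbr, Npvf and other spots not well above background are limited by signal.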

Other observations

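Of 9 peptidases that cleave such peptides, all were tested. Neprilysin (Mme), which degrades substance P, was 12.5-fold higher in striatum than in the mean of the other regions (3.64, SE 0.55, limma adjusted p = 0.00100), with dim readings from 3 of those regions in that mean. Dpp4, which trims peptides from their amino end, was higher in prefrontal cortex (1.81, adjusted p = 0.000772) and olfactory bulb (1.26, adjusted p = 0.00132) and lower in hippocampus (-1.02, adjusted p = 0.00606). Dim readings of the striatum arrays and of the hippocampus KO array enter these Dpp4 values. Ece2, an endothelin-converting enzyme, was lower in prefrontal cortex (-1.30, adjusted p = 0.00168) and higher in hypothalamus (1.12, adjusted p = 0.00426). It was also called higher in amygdala (1.03), though not without the array labelled amygdala WT. None of the 9 passed in KO minus WT over regions by limma, and 2 had an unadjusted p under 0.05. Dpp4 differed by -0.42 (SE 0.14, adjusted p = 0.146) and read lower on KO in 6 of 6 regions, though neither striatum array nor the hippocampus KO array was well above background, and Thop1 differed by 0.15 (adjusted p = 0.214). None passed in the amygdala interaction, which rests on the array labelled amygdala WT, and 3 had an unadjusted p under 0.05 there. The share of all genes under that p is not given here, so the counts of 2 and 3 are not read as a change of the peptidases. Among pairs measured on both arrays, the only one past 2-fold was Mme in prefrontal cortex, at -4.91 on WT and -2.26 on KO, a 6.25-fold ratio of single spots with no test. The WT reading lay near the dimmest signal well above background on that array (-5.19), and with normexp the difference was 1.17. Of all genes measured on that pair, 4.33% were past 2-fold. In hippocampus Mme was at least 2.59-fold higher on KO (-3.65), with WT not well above background, and with normexp the difference was 0.17.

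Among precursors related to the 8, Vip was highest in prefrontal cortex (1.97 on WT and 2.10 on KO) and lowest in striatum, where it was not well above background on WT and read -3.20 on KO. Sct ranged from -2.75 to -1.52 and Gast from -1.89 to -1.0. Tac4 was well above background on 6 arrays and Npvf on none.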
